A study of Mus musculus with 46 samples.

Results

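The liver transcripts of virgin SKH:QS mice, which are hairless, were compared between 6 mice given a sunscreen with zinc oxide nanoparticles (nano ZnO) and 6 untreated mice. The 12 arrays were taken by their sample titles out of 46 arrays in the series, each array holding the liver RNA of 1 mouse. In the treated arm a sunscreen made with the stable zinc isotope was applied to the dorsal skin in 6 applications within 4 days, with the liver collected on day 5 after an anaesthetic injection of Xylase and ketamine and cervical dislocation. The remaining virgin arms, also of 6 mice each, were given the same base with micrometre-sized particles (micro ZnO) or the base with no particles (formulation). A separate experiment in pregnant mice, in late gestation by their sample titles, contributed 6 nano ZnO and 5 untreated mice to 1 comparison. The joint fit behind that comparison used all 46 arrays, so the other pregnant arms entered its estimate of the spread. All mice were of the same stock and were housed one to a cage. Elizabethan collars stand in the treatment text that all samples share, and whether untreated mice wore one is not stated there. The untreated mice received neither base nor particles, so the contrast holds both of them together. The dose, the particle size, the age of the mice and the hour of killing were not given in the sources used here. The tissue label was checked against 11 hepatocyte markers, whose mean level was 12.47 to 12.55 in the untreated arrays and 12.51 to 12.61 in the nano ZnO arrays on the log2 scale, against an array median below 5. Albumin (Alb) stood at 13.86 ± 0.05 (SD, n = 6) in untreated and 13.83 ± 0.07 (SD, n = 6) in nano ZnO livers.

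Zinc that enters hepatocytes is bound by metallothioneins, small cysteine-rich proteins whose genes are switched on by the metal-sensing factor Mtf1, by glucocorticoids and by interleukin 6. Zinc also crosses membranes through the Slc39 (ZIP) importers and the Slc30 (ZnT) exporters. The liver is a strongly rhythmic organ, in which the Bmal1 (Arntl) and Clock pair drives the Per, Rev-erb and PAR-bZIP genes (Dbp, Tef) through E-boxes. Many of its enzyme and secretory genes differ between the sexes through the pulse pattern of growth hormone acting on Stat5b. During inflammation or stress the liver also makes acute-phase plasma proteins. Each of these systems is described below in the nano ZnO mice.

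All levels below are log2 array intensities, and all changes are log2 differences of nano ZnO minus untreated with the standard error after ±, from limma fitted to the 24 virgin arrays with Benjamini-Hochberg adjustment over 23410 probe sets. The threshold for a call was an adjusted p of 0.05. Of these probe sets 2796 were called, 11.9% of those tested, 1116 higher (4.77%) and 1680 lower (7.18%). With 1 probe set per gene, 2313 of 19938 genes were called (11.6%), 995 higher (4.99%) and 1318 lower (6.61%) in nano ZnO livers. Counts of list members called against untreated are to be read beside these gene shares. The median change over all genes was 0.03 and the median size among called genes was 0.33, so that most called changes were small and 65 probe sets differed by 2-fold or more. All 6 values of a group lay outside the range of the other group for 943 genes, 4.73% of those measured (374 higher, 1.88%, and 569 lower, 2.85%), and 849 of them were called.

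Array medians were 4.80 ± 0.05 in nano ZnO and 4.71 ± 0.03 in untreated livers (SD, n = 6), a difference of 0.0912 (two-sided exact permutation test, p = 0.00433, adjusted over 2 array measures 0.00866). Untreated replicate 1 stood farthest out on the first principal component of the virgin arrays. Without it 1723 probe sets were called. Of 116 called genes named below and followed through the alternative fits, 114 kept their call. Fmo2, Sult2a3, Sult2a6 and Sult3a1 are also called and named below, but were not followed. Of these, Sult3a1 passed narrowly (limma adjusted p = 0.049). The count was also lower without nano ZnO replicate 4, at 1610. When the interquartile range of the arrays entered the model as a covariate, 966 probe sets were called. With a score of clock genes as a covariate, 4 were called. That score was built from genes of the same contrast, ran from 0.22 to 0.58 in nano ZnO and from -0.76 to -0.55 in untreated livers, and so separates the same arrays as the treatment does. Clock state and treatment cannot be told apart across these arms.

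Many genes of the circadian clock were called. Of 15 measured genes of the core loop 6 were higher and 3 lower, and of 12 measured PAR-bZIP factors and their targets 8 were higher and 1 lower. The list medians were 0.28 and 0.69, beside 0.03 over all genes. Ciart (Chrono), a repressor of the Bmal1 and Clock pair, ran from 4.65 through a median of 4.86 to 5.37 in untreated livers and from 6.53 through 7.0 to 7.88 in nano ZnO livers. No value of one group reached the other, and the change was 2.25 ± 0.31 (4.74-fold, limma adjusted p = 9.14e-05). A second probe set of Ciart gave 1.77. Tef, a PAR-bZIP activator of detoxification genes, had 6.36, 6.49 and 6.72 as lowest, median and highest in untreated livers and 7.46, 7.73 and 7.97 in nano ZnO livers, again without overlap. It rose by 1.19 ± 0.14 (limma adjusted p = 2.33e-05).

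The upstream sequences of these 2 genes are shown because both carry the E-box that the Bmal1 and Clock pair is known to bind. The 250 bases before the RefSeq start (assembly GRCm38.p6) are given 5′ to 3′ on the strand of the gene, with the E-box CACGTG in capitals. The Ciart window is chr3:95882229-95882478 on the minus strand, and the first Tef window is chr15:81802423-81802672 on the plus strand.
Ciart: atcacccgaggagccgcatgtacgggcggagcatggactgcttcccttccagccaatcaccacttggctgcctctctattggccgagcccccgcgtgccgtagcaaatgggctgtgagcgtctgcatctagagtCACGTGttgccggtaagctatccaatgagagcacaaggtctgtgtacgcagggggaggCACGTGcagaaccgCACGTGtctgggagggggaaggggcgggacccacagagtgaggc
Tef: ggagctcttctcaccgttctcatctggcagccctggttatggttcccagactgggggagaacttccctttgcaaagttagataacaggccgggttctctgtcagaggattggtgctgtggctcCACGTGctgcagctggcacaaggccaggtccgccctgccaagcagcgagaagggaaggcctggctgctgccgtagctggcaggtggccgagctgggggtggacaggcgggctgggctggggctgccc
Ciart has 3 copies, which start at -116, -58 and -44 from the start site, and Tef has 1 at -127. The E-box, searched on both strands (it reads the same on each), was present in 6.02% of 32851 such windows of mouse genes. It was in 4 of 19 windows of the core loop list and 4 of 16 windows of the PAR-bZIP list. Dbp, which rose more than Tef, had 0 copies in its window, and Arntl and Nfil3 had 0 as well. Per1 had 1 copy in its first window and 0 in its second. The second Tef window, not shown, had 1 copy at -138. A match of letters is a description of the window and does not show binding in these livers.

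Several further genes of the Per side of the loop and of the PAR-bZIP outputs rose. Dbp, the PAR-bZIP factor with the largest daily swing in liver, was 5.20, 6.16 and 6.45 (lowest, median, highest) in untreated and 7.47, 7.88 and 8.11 in nano ZnO livers, a change of 1.91 ± 0.32 (adjusted p = 0.000598). Usp2, a deubiquitinase of clock proteins, rose by 1.60 ± 0.27 (0.000641 adjusted p), and Per3 rose by 1.18 ± 0.17 (adjusted p = 0.000157), from 4.63 to 4.97 in untreated and from 5.88 to 6.18 in nano ZnO livers. Neither gene overlapped between the groups. Per1 rose by 1.00 ± 0.24 with 4 of 6 nano ZnO values above every untreated one. Nr1d2 (Rev-erb beta, a repressor of Arntl) rose by 0.93 ± 0.21 and Nampt, the rate-limiting enzyme of NAD salvage, by 0.79 ± 0.20, both in 6 of 6 livers. The cryptochromes, which act with the Per proteins as repressors, did not follow them. Cry1 fell by 0.47 (SE 0.16, adjusted p = 0.0467), a call that was lost in 8 of 12 fits that left out 1 array and when array width was a covariate, and Cry2 did not pass (0.28 ± 0.10, adjusted p = 0.0832). Both were named after their values were seen. Nr1d1 (Rev-erb alpha) did not pass the test, at 7.70 ± 0.96 in untreated and 7.97 ± 1.08 in nano ZnO livers (SD, n = 6). Its levels spread over more than 2 log2 units within each group.

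The opposite arm of the clock was lower. Arntl, which encodes Bmal1, was 6.82, 7.04 and 7.36 in untreated and 5.10, 5.33 and 5.83 in nano ZnO livers and fell by 1.67 on the log2 scale (SE 0.26, limma adjusted p = 0.000257). Nfil3 (E4bp4), which competes with Dbp and Tef for their sites, fell by 1.45 (SE 0.22, adjusted p = 0.000215). All 6 nano ZnO livers were below all untreated livers for both genes. Among the outputs, Alas1, the rate-limiting enzyme of hepatic heme synthesis, rose by 1.86 ± 0.41 (adjusted p = 0.00517), but untreated livers were spread from 6.76 to 10.62 and only 3 nano ZnO livers stood above them all. Against the same untreated mice, Ciart was 2.59 higher in micro ZnO and 0.96 higher in formulation livers, and the values of Arntl were -1.49 and -0.67. These comparisons share the untreated arrays. The clock score of formulation livers ran from -0.65 to 0.35, between the other groups and overlapping both.

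**Figure D1:**
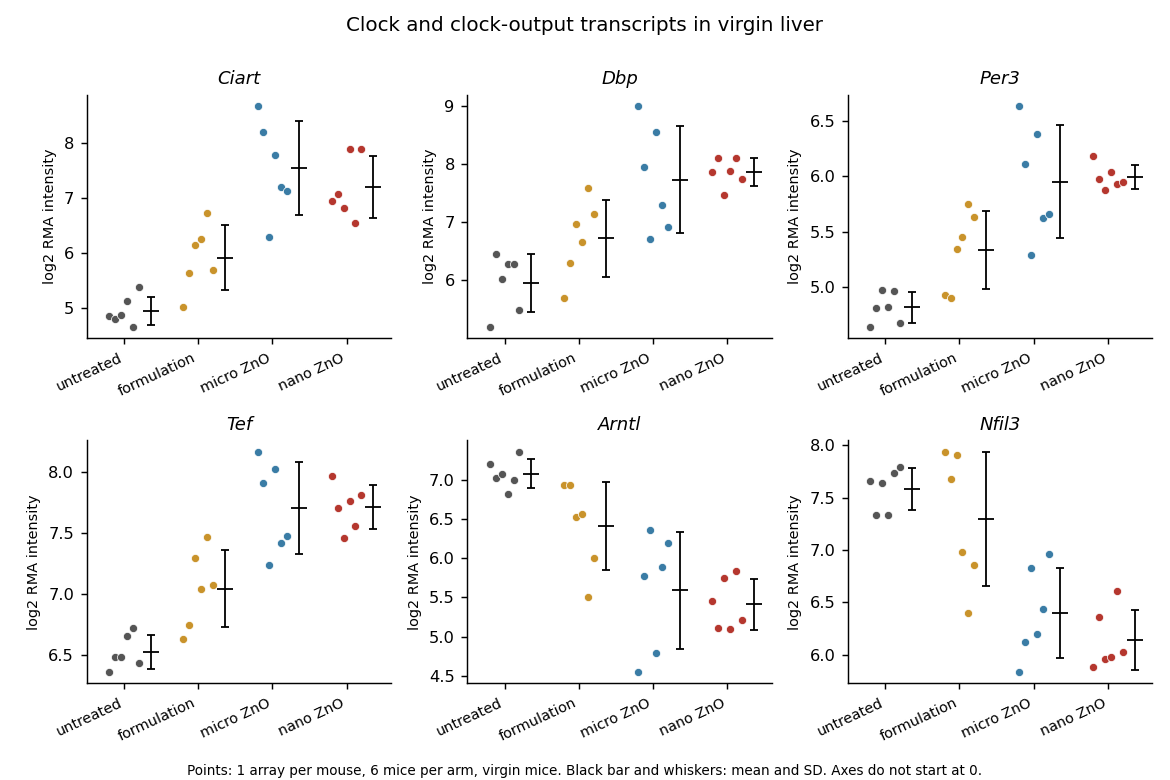
Log2 intensity (vertical axis, not starting at 0) of 6 clock genes in each virgin liver of the 4 arms, 6 mice an arm (points), with the mean and SD of each arm (bar and whiskers). Ciart, Dbp, Tef and Per3 lie higher and Arntl and Nfil3 lower in all nano ZnO livers, without overlap with the untreated livers, and the formulation livers lie between them on average.

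Genes that male mouse liver expresses more strongly were lower. Of 21 measured male-biased, growth hormone-patterned genes 15 fell, 0 rose and 6 did not pass, and the list median was -0.63. Against the same untreated mice the list median was -0.67 in micro ZnO and -0.82 in formulation livers. Slco1a1, a bile salt and organic anion uptake transporter, was 5.46, 7.27 and 8.49 (lowest, median, highest) in untreated livers and 2.78, 3.33 and 4.26 in nano ZnO livers. The groups did not overlap and the level was 12.8-fold lower (-3.68 ± 0.34, limma adjusted p = 4.55e-07), the largest change of any called gene. Its nano ZnO values lay below the mean array median of 4.80 in that arm. Hsd3b5 also ended low, at a mean of 4.27 in untreated and 2.86 in nano ZnO livers. Near the floor of the array the size of a fall is uncertain. Mup3, a major urinary protein that carries pheromones, went from 10.19 ± 0.47 to 8.22 ± 0.62 (SD, n = 6) and Elovl3, a fatty acid elongase, from 5.53 ± 0.58 to 4.20 ± 0.27, changes of -1.97 ± 0.28 and -1.34 ± 0.20. Hsd3b5 (-1.42 ± 0.23) and Hsd3b2 (-1.01 ± 0.19), steroid dehydrogenases, fell as well, as did Mup21 (-1.11 ± 0.21), Ugt2b1 (-0.49 ± 0.11), Keg1, a glycine N-acyltransferase-like enzyme of kidney and liver (-0.51 ± 0.13), and Cyp7b1, the oxysterol 7-alpha-hydroxylase (-0.63 ± 0.16). Probe sets of near-identical family copies (Mup, Hsd3b, Ugt2b, Gstm, Ces, Saa and Cyp2 genes) may share signal, so the member named is uncertain.

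Female-biased genes were split. Of 27 measured, 7 rose, 4 fell and 16 did not pass, with a median of 0.21. A1bg, a secreted plasma protein that is far higher in female liver, was 10.16, 11.01 and 11.57 in untreated and 7.02, 8.04 and 9.72 in nano ZnO livers, without overlap (-2.79 ± 0.38, 6.91-fold lower, adjusted p = 9.06e-05). Hao2, a hydroxyacid oxidase, fell by 1.10 (SE 0.21) and Ntrk2, a neurotrophin receptor, by 0.87 (SE 0.12). The members that rose were led by Sult1e1, the estrogen sulfotransferase, with 4.46, 5.94 and 7.17 in untreated and 6.90, 7.83 and 10.11 in nano ZnO livers (2.00 ± 0.49, adjusted p = 0.0101). Here the ranges overlapped, and 4 of 6 nano ZnO livers exceeded every untreated liver. Cyp39a1, an oxysterol hydroxylase, rose by 1.70 ± 0.18 (adjusted p = 5.23e-06) and Cyp17a1, a steroid hydroxylase and lyase, by 1.27 ± 0.18, each with 6 of 6 livers above all untreated ones. Cyp4a14, a fatty acid hydroxylase, rose by 1.53 ± 0.41 with 3 of 6 livers above. With the array interquartile range as a covariate Cyp4a14, Cyp7b1 and Keg1 were no longer called.

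**Figure D2:**
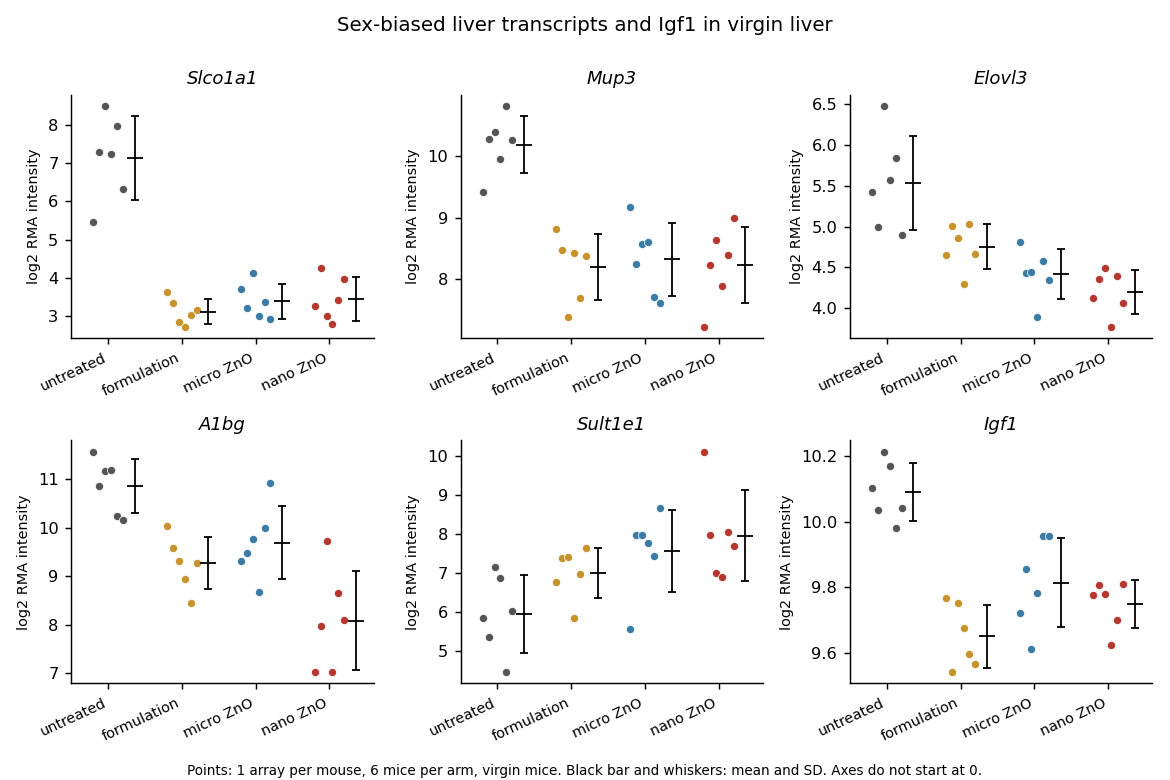
Log2 intensity (vertical axis, not starting at 0) of 5 sex-biased genes and Igf1 in each virgin liver of the 4 arms, 6 mice an arm (points), with the mean and SD of each arm. Slco1a1, Mup3, Elovl3, A1bg and Igf1 lie lower in every nano ZnO liver than in any untreated liver, and Sult1e1 lies higher with overlap.

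In the growth hormone, prolactin and insulin-like growth factor axis 4 of 21 measured genes fell and 1 rose, with a list median of -0.02. Stat5b, which carries the growth hormone signal to the nucleus, went from 7.98 ± 0.17 to 7.45 ± 0.16 (SD, n = 6; -0.53 ± 0.11, adjusted p = 0.00314). Igf1, the circulating growth factor made by liver, was 9.98, 10.07 and 10.21 in untreated and 9.63, 9.78 and 9.81 in nano ZnO livers (-0.34 ± 0.07, adjusted p = 0.00224). Igfals, the acid-labile subunit that holds Igf1 in plasma, fell by 0.64 (SE 0.13), and Igfbp4, a binding protein, rose by 0.30 ± 0.08. Igf1, Igfals and Igfbp4 did not overlap between the groups. The growth hormone receptor Ghr did not pass (-0.14 ± 0.08, adjusted p = 0.281), nor did Igfbp1, which nutrition and stress regulate (0.89 ± 0.33, adjusted p = 0.075).

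The metallothioneins Mt1 and Mt2 rose, and the zinc transporters moved in both directions. Of 29 measured genes of zinc handling 6 rose, 6 fell and 17 did not pass, with a median of -0.01. Mt1 was 9.61, 10.46 and 11.12 (lowest, median, highest) in untreated livers and 11.48, 11.93 and 12.11 in nano ZnO livers (1.38 ± 0.19, 2.61-fold, limma adjusted p = 0.000139), without overlap. Mt2 was 9.10, 10.41 and 11.49 against 11.42, 11.91 and 12.32 (1.44 ± 0.28, 2.72-fold), with 5 of 6 nano ZnO values above every untreated one. The dimmer family members Mt3 (0.20 ± 0.09, adjusted p = 0.133) and Mt4 (0.17 ± 0.08, adjusted p = 0.142), named after their values were seen, did not pass. Untreated replicate 1, the array that stood apart, held the lowest value of both genes, and without it the changes were 1.22 and 1.17. Against the same untreated mice Mt1 was 1.53 higher in micro ZnO and 1.71 higher in formulation livers, which received no zinc oxide particles. Nano ZnO minus formulation was -0.33 ± 0.19 for Mt1 and -0.53 ± 0.28 for Mt2, and neither passed.

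Upstream windows of both metallothioneins are shown because metal response elements, the sites of Mtf1, lie in the promoters of these genes. The windows are the 250 bases before the RefSeq start (GRCm38.p6), on the plus strand at chr8:94178839-94179088 for Mt1 and chr8:94172368-94172617 for Mt2, and capitals mark the core TGCACNC or TGCGCNC on either strand.
Mt1: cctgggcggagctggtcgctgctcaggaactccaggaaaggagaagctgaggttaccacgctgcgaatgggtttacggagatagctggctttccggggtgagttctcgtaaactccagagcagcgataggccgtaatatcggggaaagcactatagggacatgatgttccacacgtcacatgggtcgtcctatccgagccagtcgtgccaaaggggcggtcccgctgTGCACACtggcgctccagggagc
Mt2: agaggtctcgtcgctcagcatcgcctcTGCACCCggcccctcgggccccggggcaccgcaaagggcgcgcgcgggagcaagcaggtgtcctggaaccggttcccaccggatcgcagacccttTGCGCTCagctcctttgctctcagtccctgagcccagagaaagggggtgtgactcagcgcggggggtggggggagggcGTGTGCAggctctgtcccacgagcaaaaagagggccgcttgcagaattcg
Within these windows Mt1 has 1 core at -23 and Mt2 has 3, at -223, -128 and -50, the last on the other strand. Sequence outside the windows, including that after the RefSeq start, was not searched, so these are not counts for whole promoters. The core was found in 21.4% of 32851 windows of all genes and in 14 of 30 windows (46.7%) of the zinc handling genes. Such a short pattern is common, and a match does not show that Mtf1 was bound.

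Among the importers, Slc39a4 (ZIP4), best known as the intestinal zinc importer, had the smallest adjusted p of the genes named here. It was 7.75, 7.98 and 8.22 in untreated and 6.33, 6.66 and 6.93 in nano ZnO livers, 2.55-fold lower (-1.35 ± 0.10, adjusted p = 5.75e-09), with no overlap. Slc39a14 (ZIP14), the importer of zinc, iron and manganese that inflammation raises in liver, was 8.32, 8.37 and 8.61 against 8.65, 8.79 and 9.28 (0.45 ± 0.15, adjusted p = 0.0465). Its groups did not overlap, but the call was lost in 10 of 12 fits that left out 1 array. Slc39a10 (ZIP10) fell by 0.50 (SE 0.13), from low levels of 4.08 ± 0.33 to 3.58 ± 0.19 (SD, n = 6). The plasma membrane importers Slc39a1 (0.05 ± 0.10) and Slc39a8 (-0.15 ± 0.08) did not pass. Among the exporters, Slc30a1 (ZnT1), a classic target of Mtf1, rose by 0.40 ± 0.11 in 6 of 6 livers (adjusted p = 0.0163), and Slc30a10, chiefly a manganese exporter, fell from 8.26 ± 0.30 to 7.18 ± 0.22 (SD, n = 6; -1.08 ± 0.18). Slc30a9 was 6.90 in both groups. The calls of Slc30a1 and Slc39a10 were lost with the interquartile range as a covariate. Nano ZnO minus formulation was -0.32 for Slc39a4 and did not pass (limma adjusted p = 0.083). In that comparison 1 of the 29 genes of zinc handling was called, Slc30a10 (-0.65, limma adjusted p = 0.0427).

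**Figure D3:**
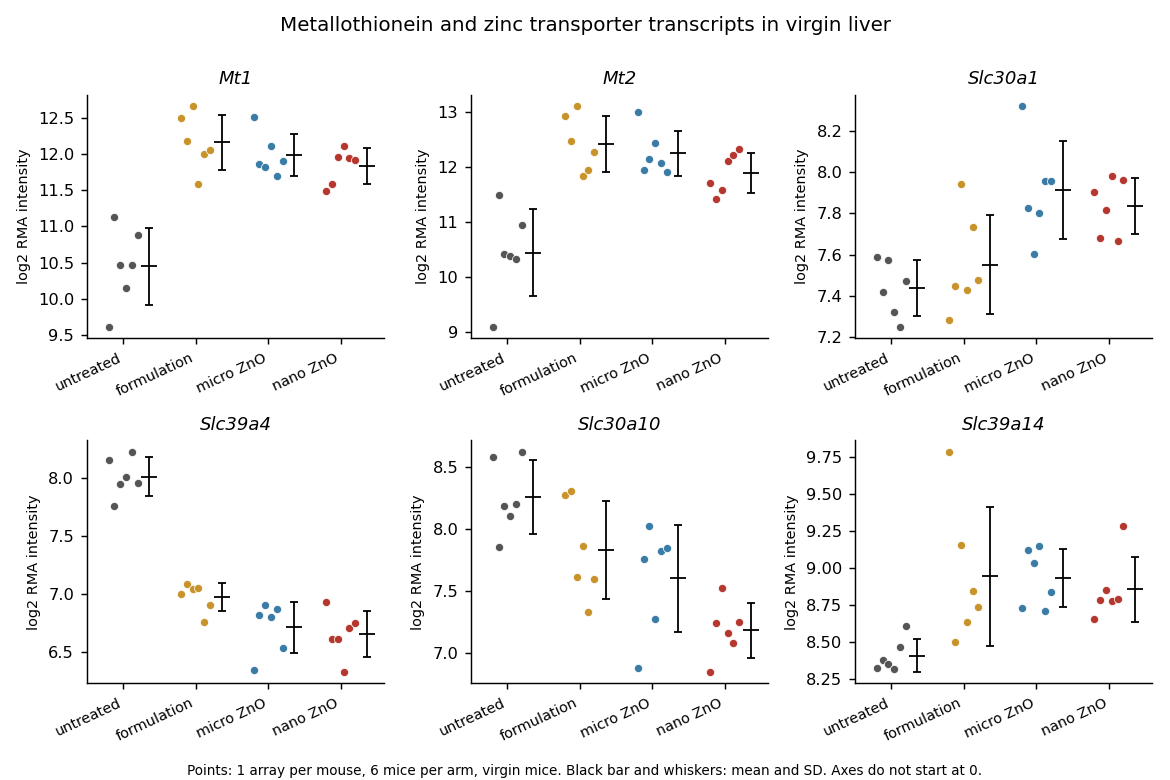
Log2 intensity (vertical axis, not starting at 0) of metallothioneins and zinc transporters in each virgin liver of the 4 arms, 6 mice an arm (points), with the mean and SD of each arm. Mt1 and Slc30a1 lie higher and Slc39a4 and Slc30a10 lower in every nano ZnO liver than in any untreated liver, and Mt2 overlaps at 1 value.

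Of 28 measured acute-phase plasma proteins 9 rose, 0 fell and 19 did not pass, with a list median of 0.26. Saa1, the serum amyloid A protein of inflammation, was 4.89, 5.76 and 6.29 in untreated and 7.63, 8.40 and 9.97 in nano ZnO livers (2.93 ± 0.52, 7.61-fold, limma adjusted p = 0.000991). Orm2, an orosomucoid that binds drugs in plasma, was 7.02, 8.27 and 8.72 against 10.14, 10.65 and 11.20 (2.61 ± 0.30, 6.11-fold, adjusted p = 9.75e-06). Saa2 rose by 2.75 ± 0.55, and none of the 3 overlapped between the groups. The other serum amyloids Saa3 (0.66 ± 0.46, adjusted p = 0.355) and Saa4 (0.08 ± 0.19, adjusted p = 0.831) did not pass. Abundant members moved less, with Hp (haptoglobin) at 0.39 ± 0.09, Itih3 at 0.39 ± 0.08 and the protease inhibitor Serpina3n at 0.43 ± 0.11, each in 6 of 6 livers. Orm1 (0.27 ± 0.11, adjusted p = 0.117) and the fibrinogen chains Fgb (0.06 ± 0.06), Fgg (0.01 ± 0.07) and Fga (-0.32 ± 0.15, adjusted p = 0.144, 4 of 6 livers below all untreated ones) did not pass either. A second, dimmer probe set of Fga fell by 0.77 (SE 0.21, adjusted p = 0.0184), so the 2 probe sets differ in their call and share a direction. Saa3, Saa4 and Fga were named after their values were seen. Of 22 measured genes of interleukin 6 and interleukin 1 signalling 2 rose and 1 fell, near the 11.6% called over all genes. Cebpb, an activator of acute-phase genes, rose by 0.67 ± 0.14 without overlap, while Stat3, the factor downstream of interleukin 6, was 8.59 in both groups. Against the same untreated mice Saa1 was 3.82 higher in micro ZnO and 3.84 higher in formulation livers, Saa2 was 3.73 and 3.98 higher, and Saa3 was 1.43 and 2.04 higher.

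Some markers of neutrophils were higher. Of 16 measured markers 5 rose and 0 fell, with a median of 0.42. Their mean level ran from 4.33 to 4.48 in untreated and from 4.55 to 5.54 in nano ZnO arrays, with 4.34 to 4.75 in micro ZnO and 4.61 to 5.28 in formulation arrays. S100a8 and S100a9, the calprotectin chains of neutrophils, rose by 1.13 ± 0.30 and 1.04 ± 0.29, and Ly6g, a surface marker, rose by 0.63 ± 0.14 from levels near the floor of the array (2.89 ± 0.09 in untreated, 3.52 ± 0.36 in nano ZnO, SD, n = 6). Each was above all untreated values in 6 of 6 nano ZnO livers. Mmp9, a gelatinase of granules, rose by 0.47 ± 0.13, and Lcn2, which hepatocytes make as well, did not pass (0.83 ± 0.37, adjusted p = 0.136). In bulk liver RNA more cells of a type and more RNA per cell cannot be told apart, and the part of these cells in the acute-phase values was not tested. The call of Mmp9 was lost without untreated replicate 3 and with a further quantile normalization. Nano ZnO minus micro ZnO was 1.01 for S100a8 and 0.91 for S100a9, and -0.89 for Saa1 and -0.98 for Saa2, and none of these passed.

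Some targets of glucocorticoids and some immediate early genes were higher. Of 24 measured glucocorticoid-responsive genes 9 rose, 0 fell and 15 did not pass (median 0.47). That list shares Mt1, Mt2, Per1, Sult1e1, Dusp1 and Gadd45g with other lists. Of 32 immediate early genes 8 rose, 0 fell and 24 did not pass (median 0.26). Against the same untreated mice, the glucocorticoid list median was 0.37 in micro ZnO and 0.55 in formulation livers. For the immediate early list it was 0.145 and 0.537. Dusp1, a phosphatase that switches off MAP kinases, was 6.33, 6.80 and 7.86 (lowest, median, highest) in untreated and 7.97, 8.61 and 9.93 in nano ZnO livers (1.76 ± 0.30, adjusted p = 0.000725), without overlap. Gadd45g, a stress-inducible growth arrest gene, rose by 1.43 ± 0.26, although untreated replicate 6 at 7.57 lay within the nano ZnO range. Btg2 (1.37 ± 0.25), the transcription factors Jun (1.32 ± 0.29) and Atf3 (1.21 ± 0.24), and the mRNA decay factor Zfp36 (0.92 ± 0.24) rose with ranges that overlapped, and between 3 and 5 of 6 nano ZnO livers lay above all untreated ones. Fos did not pass (0.49 ± 0.31, adjusted p = 0.3). Mfsd2a, a fasting-induced lysolipid transporter of the glucocorticoid list, rose by 1.88 ± 0.42, and Plk3, a stress kinase outside these lists, by 1.5 ± 0.28. Jun and Zfp36 lost their call with the interquartile range as a covariate.

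In carbohydrate metabolism 5 of 25 measured genes fell and 3 rose, with a median of -0.05. Ppp1r3c, which targets protein phosphatase to glycogen, was 7.29, 7.71 and 8.48 in untreated and 5.02, 5.89 and 6.37 in nano ZnO livers (-1.92 ± 0.36, 3.77-fold lower, adjusted p = 0.00147), with no overlap. The glycolytic enzyme Pklr fell by 0.69 (SE 0.13) and the glycerol 3-phosphate dehydrogenase Gpd1 by 0.41 (SE 0.09), while Pfkfb3, a phosphofructokinase activator, rose by 0.46 ± 0.11. Pck1, the gate enzyme of gluconeogenesis, did not pass (0.49 ± 0.22, adjusted p = 0.15).

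Lipid genes divided by pathway. Of 28 measured genes of fatty acid and triglyceride synthesis 6 fell and 1 rose (median -0.17). Me1, which supplies NADPH, went from 9.50 ± 0.33 to 8.85 ± 0.19 (SD, n = 6; -0.65 ± 0.13), and Acly (-0.64 ± 0.16), Acacb (-0.68 ± 0.15) and Elovl5 (-0.58 ± 0.11) fell too, as did the fatty acid binding protein Fabp5 (-1.07 ± 0.23). Scd1 did not pass (-0.31 ± 0.14, adjusted p = 0.134). Of 46 PPARA targets and oxidation genes 9 fell and 3 rose (median -0.01), among them the lipid droplet coat protein Plin2, 9.78, 9.97 and 10.06 in untreated against 8.99, 9.16 and 9.39 in nano ZnO livers (-0.77 ± 0.13, adjusted p = 0.000771), and Fabp1, the liver fatty acid binding protein (-0.66 ± 0.17). Acly and Acacb lost their call with the interquartile range as a covariate.

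Sterol synthesis went the other way. Of 22 measured genes of cholesterol synthesis and uptake 11 rose and 1 fell, with a median of 0.30. Msmo1, a sterol demethylating oxidase, was 10.75, 10.89 and 11.14 in untreated and 11.55, 11.90 and 12.39 in nano ZnO livers (1.02 ± 0.13, 2.03-fold, adjusted p = 6.27e-05). Idi1, the isopentenyl diphosphate isomerase, rose by 0.90 ± 0.15, the epoxidase Sqle by 0.90 ± 0.16 and the lanosterol demethylase Cyp51 by 0.60 ± 0.13, and only Sqle overlapped between the groups. Insig2, which retains the sterol sensor in the endoplasmic reticulum, was the member that fell (-0.75 ± 0.17, 6 of 6 livers below all untreated ones), and its call was lost with the interquartile range as a covariate. Of 19 apolipoproteins and partners 1 rose (Apoa5, 0.42 ± 0.10) and 4 fell, among them Apoa4 (-0.62 ± 0.10) and the phospholipid transfer protein Pltp (-0.50 ± 0.11).

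In bile acid synthesis 2 of 22 measured genes rose and 3 fell. Cyp7a1, the rate-limiting enzyme of bile acid synthesis, was 9.09, 9.51 and 10.18 in untreated and 10.13, 10.80 and 11.01 in nano ZnO livers (1.13 ± 0.24, 2.18-fold, adjusted p = 0.00337), with 5 of 6 values above every untreated one. The later enzymes Hsd3b7 (-0.52 ± 0.10) and Akr1c6 (-0.35 ± 0.08) fell. Of 21 measured transporters of bile and drugs 4 fell and 1 rose. Slc10a2, the ileal type of bile salt importer, fell by 1.37 (SE 0.24, adjusted p = 0.000874), and Abcg2, an export pump, by 0.42 (SE 0.07). Abcc2, the canalicular pump of conjugates, rose by 0.42 ± 0.09. The main bile salt carriers of hepatocytes, Slc10a1 (0.08 ± 0.07) and Abcb11 (0.03 ± 0.09), did not pass.

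Drug-metabolizing families were mixed or lower. Of 38 measured cytochrome P450 genes of families 1 to 3, 5 rose and 6 fell (median 0.03), with Cyp2c67 at -0.96 ± 0.16, Cyp2d40 at -0.58 ± 0.12 and Cyp2a22 at 1.01 ± 0.25. Of 18 glutathione S-transferases 9 fell and 0 rose (median -0.24), led by Gstm6, which was 7.40, 7.76 and 7.96 in untreated and 6.48, 6.85 and 7.33 in nano ZnO livers (-0.89 ± 0.13, adjusted p = 0.000204). Gsta4, which clears hydroxynonenal, fell by 0.29 (SE 0.08). Of 18 measured genes of the carboxylesterase list 8 fell and 0 rose, and of its 16 Ces genes 7 fell, with Ces2e at -0.96 ± 0.14, Ces3a at -0.87 ± 0.15, Ces1f at -0.85 ± 0.16 and Ces3b at -0.73 ± 0.12. In the glucuronosyltransferases 4 of 11 fell, Ugt2b5 by 0.47 (SE 0.11) among them, and 0 rose. Sulfotransferases were the exception, with 5 of 12 higher and 1 lower, the sulfate donor enzyme Papss1 (-0.62 ± 0.10). Among those that rose, Sult2a3 (3.30 in untreated, 3.87 in nano ZnO) and Sult2a6 (2.58 and 2.9) had low levels. Sult1e1 and Sult3a1 are also members of the female-biased list. Of 8 xenobiotic receptors 1 was higher and 0 lower, near the 11.6% called over all genes. Against the same untreated mice, the glutathione S-transferase median was -0.19 in micro ZnO and -0.21 in formulation livers. In the same order the medians were -0.153 and -0.2 for the carboxylesterase list and -0.165 and -0.614 for the glucuronosyltransferases. For the sulfotransferases they were 0.083 and -0.011, beside 0.179 in nano ZnO livers.

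Antioxidant and secretory pathway genes were lower as well. Of 27 measured genes of the Nrf2 and antioxidant list 9 fell and 0 rose (median -0.18). Gclc, the catalytic subunit for glutathione synthesis, was 10.21, 10.23 and 10.42 in untreated and 9.12, 9.34 and 9.65 in nano ZnO livers (-0.93 ± 0.12, 1.9-fold lower, adjusted p = 4.87e-05). Osgin1, a stress-responsive growth inhibitor, fell by 1.26 (SE 0.31), the autophagy receptor Sqstm1 by 0.33 (SE 0.08) and thioredoxin Txn1 by 0.25 (SE 0.07). Only Osgin1 overlapped between the groups. Of 31 chaperones of the endoplasmic reticulum and the unfolded protein response 12 fell and 2 rose (median -0.29), with Hyou1 at -0.82 ± 0.20, Sdf2l1 at -0.74 ± 0.17, Pdia6 at -0.63 ± 0.12 and calreticulin Calr at -0.53 ± 0.12. The main chaperone Hspa5 (BiP) did not pass (-0.51 ± 0.19, adjusted p = 0.073). Of these genes Gsta4, Sqstm1, Txn1, Hyou1, Sdf2l1 and Calr lost their call with the interquartile range as a covariate. Against the same untreated mice, the antioxidant list median was -0.17 in micro ZnO and -0.19 in formulation livers. For the chaperone list it was -0.19 and -0.28.

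Of 28 measured genes of heme and iron handling 5 fell and 1 rose. The gene that rose was Alas1, given above, while its erythroid counterpart Alas2, counted among the erythroid markers, went from 7.08 ± 0.45 to 6.24 ± 0.19 (SD, n = 6; -0.84 ± 0.17, adjusted p = 0.00264) and the ferrireductase Steap3 from 7.52 ± 0.09 to 7.09 ± 0.09 (-0.43 ± 0.08). Neither overlapped between the groups. Several genes outside the lists were among the largest falls. Aqp8, a water and peroxide channel, was 9.33, 10.00 and 10.95 in untreated and 7.37, 8.47 and 9.02 in nano ZnO livers (-1.77 ± 0.29), and the peptidase Mme (neprilysin) was 6.90, 6.96 and 7.36 against 4.66, 5.32 and 6.01 (-1.72 ± 0.19, adjusted p = 5.89e-06). The tubulin Tubb2a fell by 1.72 (SE 0.30), the succinate receptor Sucnr1 by 1.38 (SE 0.22), the ubiquitin ligase Rnf125 by 1.33 (SE 0.19), the mitochondrial chaperone Clpx by 1.26 (SE 0.23) and the protease inhibitor Serpinb1a by 1.16 (SE 0.16). None of these 7 genes overlapped between the groups.

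Most other gene groups were near or below the background of 11.6% called, and the complement and coagulation genes were above it. In the respiratory chain and ATP synthase 2 of 43 measured genes fell and 0 rose, and in ribosome biogenesis 1 of 36 rose and 1 fell. Of 30 genes of the urea cycle and amino acid breakdown 2 rose and 2 fell, of 28 cell cycle genes 2 rose and 1 fell, and of 37 complement and coagulation genes 2 rose and 4 fell. Few calls were also made among cytosolic heat shock chaperones (0 of 20 higher, 2 lower) and interferon-stimulated genes (0 of 25 higher, 3 lower). Inflammatory cytokines had 0 of 24 higher and 2 lower. In each of these lists the share called lower was above the 6.61% over all genes. The members were chosen with earlier results in view, so these shares describe the lists and are not a test of them.

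**Figure D4:**
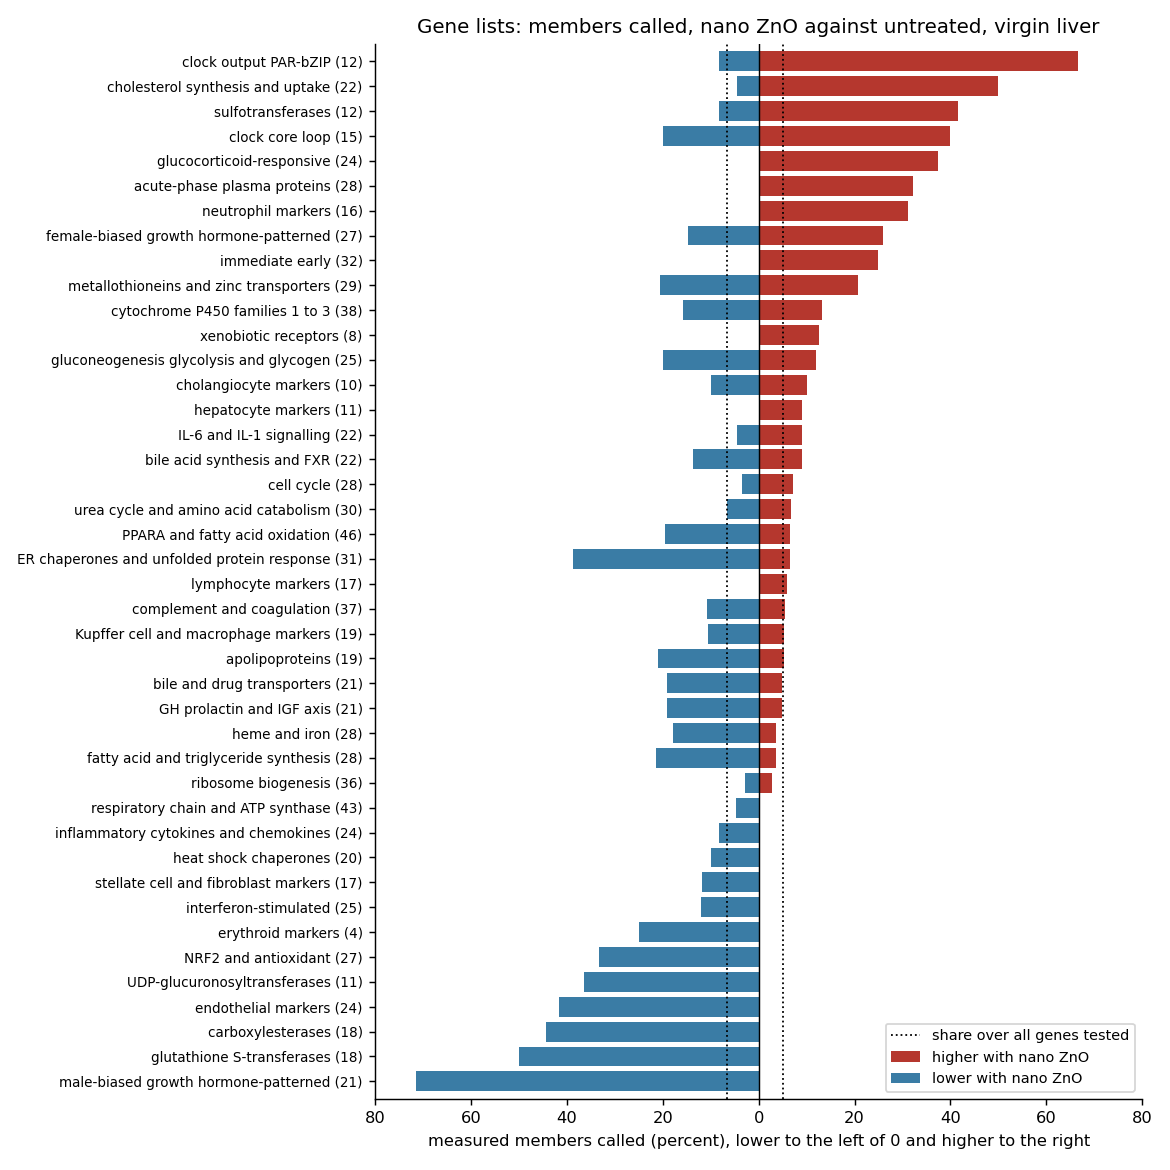
Percent of the measured members of each list (number in brackets) called higher (right of 0) or lower (left of 0) in nano ZnO than in untreated virgin livers, with dotted lines at the share over all genes tested. The male-biased list has 15 of 21 lower, the acute-phase list 9 of 28 higher and the respiratory chain list 2 of 43 lower.

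Markers of other liver cells were checked in the same way. Of 24 measured endothelial markers 10 fell and 0 rose (median -0.24), and their mean level ran from 6.29 to 6.45 in untreated and from 6.04 to 6.28 in nano ZnO arrays, without overlap, with 6.03 to 6.26 in micro ZnO and 6.00 to 6.28 in formulation arrays. Their part in the values of other genes was not tested. Tek, the angiopoietin receptor, was 6.02, 6.22 and 6.26 in untreated and 5.46, 5.56 and 6.02 in nano ZnO livers (-0.55 ± 0.09, adjusted p = 0.000559). Emcn (-0.43 ± 0.09), the growth factor receptor Kdr (-0.43 ± 0.11) and the junction protein Cdh5 (-0.40 ± 0.10) fell in 6 of 6 livers. For the sinusoidal lectin Clec4g the brighter probe set fell by 0.59 (SE 0.15) and a dim second one gave 0.07, so its probe sets disagree. Kdr, Cdh5 and Clec4g lost their call with the interquartile range as a covariate. Kupffer cell markers had 1 of 19 higher and 2 lower and stellate cell markers 0 of 17 higher and 2 lower. Cholangiocyte markers had 1 of 10 in each direction, lymphocyte markers 1 of 17 higher and erythroid markers 1 of 4 lower. Over all genes 11.6% were called. The mean level of each of these marker lists overlapped between the groups. Of 11 hepatocyte markers 1 rose, and Alb (-0.04 ± 0.05) and Apoa1 (0.07 ± 0.05) did not pass.

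Whether the size of the particles mattered was addressed by nano ZnO minus micro ZnO. With limma 0 of 23410 probe sets were called (0%), with 1106 at an unadjusted p under 0.05 and a smallest adjusted p of 0.961, and 0 were called under each alternative setting run. The 95% interval of the difference reached a median of 0.19 to either side over all genes, and for 2293 of the 2313 genes called against untreated (99.1%) it lay within 1 log2 unit of 0. That margin is wider than the median size of the change of those genes against untreated (0.33). The share therefore does not show that the response was the same in both arms. For Mt1 the difference was -0.15 (95% interval -0.55 to 0.25), for Slc39a4 -0.06 (-0.26 to 0.15), for Ciart -0.35 (-0.97 to 0.28) and for Slco1a1 0.06 (-0.65 to 0.77). The genes with the smallest p were Cyp2d40 (-0.55 ± 0.12), Psrc1 (0.34 ± 0.08) and Olfr920 (0.32 ± 0.07). Some genes had larger differences with intervals that left out 0, such as A1bg (-1.61, from -2.39 to -0.84), Dusp1 (1.04, from 0.42 to 1.66) and S100a8 (1.01, from 0.40 to 1.62). These intervals are for single genes and are not adjusted. A p above the threshold does not show that the sunscreens acted alike.

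The addition of nanoparticles to the base was addressed by nano ZnO minus formulation. Here 760 probe sets were called (3.25%), 591 higher (2.52%) and 169 lower (0.722%) in nano ZnO livers. A further quantile normalization also gave 760, divided into 494 higher and 266 lower, and a fit of these 2 groups alone gave 189. By 1 probe set per gene 615 were called (3.08%), 504 higher (2.53%) and 111 lower (0.557%). Among the 5 largest rises were the clock and clock output genes Ciart at 1.28 ± 0.31 (adjusted p = 0.0205), Dbp at 1.14 ± 0.32 and Nampt at 1.00 ± 0.20, beside Keg1 at 1.03 ± 0.13 and the flavin monooxygenase Fmo2 at 1.01 ± 0.20. The largest falls were the immediate early genes Fos at -1.65 ± 0.31 (adjusted p = 0.00545), Jun at -1.47 ± 0.29 and Btg2 at -1.22 ± 0.25, beside Igfbp1 at -1.28 ± 0.33 and the clock output gene Nfil3 at -1.16 ± 0.22. The immediate early gene Atf3 was lower too (-1.15 ± 0.24). By list, 7 of 32 immediate early genes were lower than in formulation livers, 7 of 22 sterol genes were higher, and 0 of 28 acute-phase genes were called. In untreated livers Jun was 5.75, 6.07 and 6.70, in nano ZnO livers 6.57, 7.26 and 8.6, and in formulation livers its change against untreated was 2.79. On average, Jun in nano ZnO livers thus lay between untreated and formulation livers. Keg1 was lowest with the base alone, 1.55 below untreated, and 0.51 below it in nano ZnO livers.

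**Figure D5:**
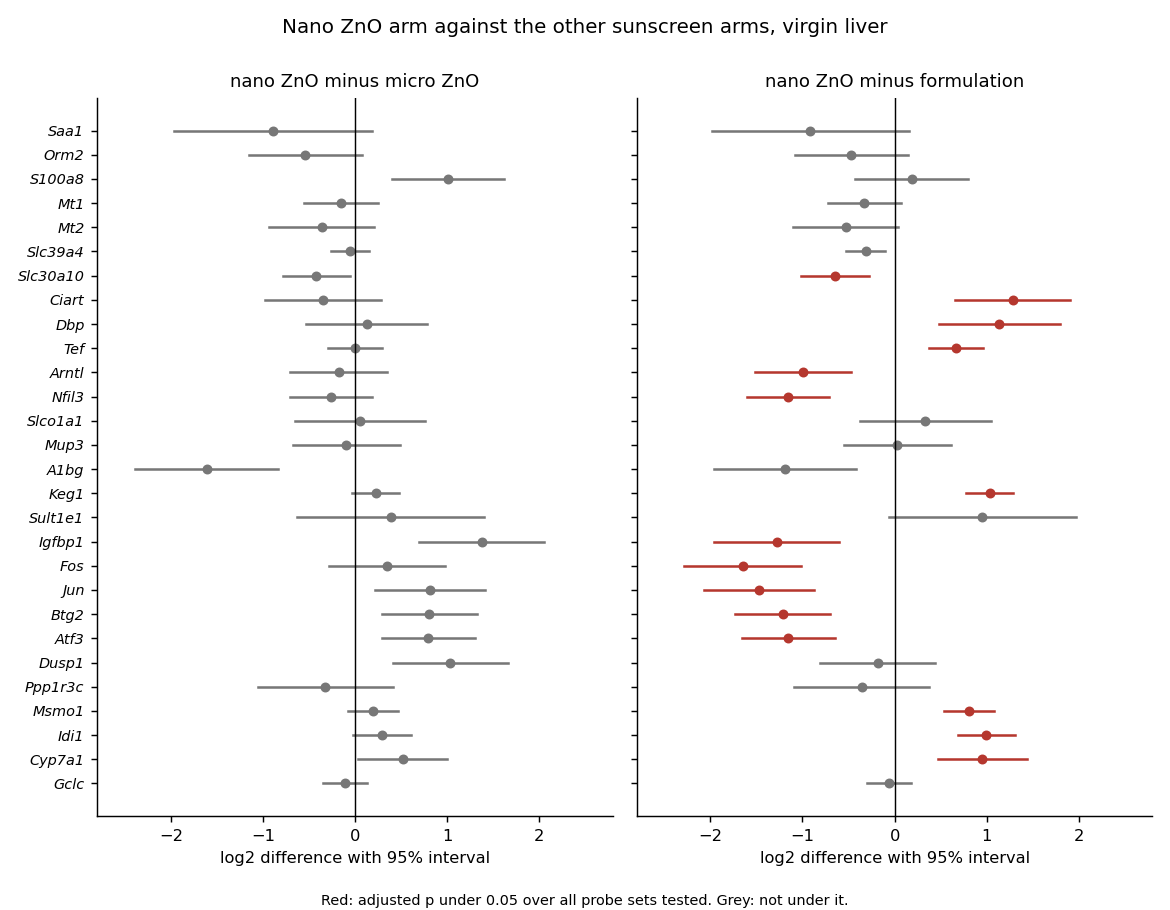
Log2 difference (horizontal axis) of nano ZnO minus micro ZnO (left) and nano ZnO minus formulation (right) for genes named in the text, 6 virgin mice an arm, with the 95% interval from limma. Red marks an adjusted p under 0.05, which no gene on the left reaches, while on the right Ciart (1.28) is among the higher and Fos (-1.65) among the lower genes.

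The nano ZnO response was compared with that in the pregnant experiment as an interaction. The arrays of that experiment may have been normalized separately. Array medians ran from 3.99 to 4.11 in pregnant nano ZnO livers and from 4.73 to 4.86 in virgin nano ZnO livers. Pregnancy and experiment cannot be told apart in this comparison. The response differed at 10 of 23410 probe sets (0.0427%), 9 with a higher (0.0384%) and 1 with a lower (0.00427%) change in pregnant mice, and 1466 had an unadjusted p under 0.05. Among them were 7 genes that fell in virgin livers. A1bg was -2.79 ± 0.38 in virgin and -0.28 ± 0.16 in pregnant livers, a difference of 2.51 ± 0.45 (adjusted p = 0.00522). Slc39a4 was -1.35 ± 0.10 and -0.42 ± 0.12 (difference 0.93 ± 0.16, adjusted p = 0.00405), and Slc10a2 was -1.37 ± 0.24 and 0.69 ± 0.23 (difference 2.06 ± 0.35). The differences of Serpinb1a (1.41 ± 0.23), Gstm6 (1.01 ± 0.21), Ntrk2 (0.98 ± 0.15) and Apoa4 (0.75 ± 0.14) had the same sign. Cyp2a22 was the gene with the opposite sign, 1.01 ± 0.25 in virgin and -0.92 ± 0.21 in pregnant livers. For Mt1 (-0.89 ± 0.25, adjusted p = 0.352), Ciart (-1.18 ± 0.72) and Slco1a1 (2.01 ± 0.68, adjusted p = 0.538) the difference did not pass. Orm2 was 2.61 ± 0.30 higher in virgin and 2.82 ± 0.20 higher in pregnant nano ZnO livers.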

How the data were processed

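Total RNA of 1 liver per mouse was hybridised to Affymetrix Mouse Gene ST arrays. The authors deposited log2 intensities made with RMA (background correction, quantile normalization and probe summarization), per the submitters' processing notes, whose software version is not given in the sources used here. The values came without detection calls, so no depth can be given, and precision rests on how many arrays there are. Of 35512 probe sets in the table, the 23410 with a gene symbol were tested (21789 with 1 symbol, 1621 with several). Genes were named from probe sets with 1 symbol, and the brightest probe set stood for a gene.

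A linear model with the 4 virgin arm means was fitted with limma 3.58.1 in R 4.3.3 (lmFit, eBayes, two-sided, Benjamini-Hochberg over 23410 probe sets), and a joint model of 8 groups gave the interaction. Group members are separate mice. The procedure was tested on simulated data. Genes were named by rule: the 20 largest rises and falls, up to 6 called and 3 uncalled members of each list described, and 6 zinc genes. A few family members were added after their values were seen. The members and the 42 gene lists were chosen with earlier results of these data known. Replicate numbers were checked for pairing by the correlation of deviations from group means, and they did not pair the samples. Promoters came from a RefSeq table of GRCm38.p6. Alternatives were all probe sets, dim probe sets (below the 40th percentile) left out, an intensity trend with robust settings, array weights, further quantile normalization, the compared groups alone, a replicate block, covariates for array width or clock score, a 1.5-fold minimum and each array left out.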

Additional observations from a re-analysis of the deposited data

Results flagged for a closer look

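For 13 of 286 groups of 6 values, over 143 genes in 2 groups, 1 array stood apart from the other 5 by Dixon's test at the 95% level, where chance flags about 1 in 20 groups. The highest untreated values were Abcb11 at 10.98 (replicate 5), Gadd45g at 7.57 and Pltp at 8.35 (both replicate 6), Slc39a1 at 8.35 (replicate 2) and Slc39a10 at 4.72 (replicate 1). Lcn2 was lowest in untreated replicate 5, at 6.77. The highest nano ZnO values were Cyp4a14 at 10.73 and Dusp1 at 9.93 (both replicate 4), Fgg at 12.79, Saa4 at 10.17, Sdf2l1 at 7.44 and Slc39a14 at 9.28 (all replicate 6), and Sult1e1 at 10.11 (replicate 1).

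The response of pregnant minus that of virgin livers differed by limma's interaction test for A1bg (2.51), Slc10a2 (2.06), Serpinb1a (1.41), Gstm6 (1.01), Ntrk2 (0.98), Slc39a4 (0.93), Apoa4 (0.75) and Cyp2a22 (-1.93).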

How the results depend on the processing

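The count of 2796 probe sets called against untreated stayed within 1.5 times under the other settings of array processing (1984 to 3115). It came to 966 with array width (interquartile range) as a covariate, 4 with the clock score, 244 with a 1.5-fold minimum, and 1610 to 3473 with 1 array left out. Against formulation 760 became 189 in the compared groups alone, 156 with array width, 68 with a 1.5-fold minimum, and 251 to 1115 with 1 array left out (251 without nano ZnO replicate 6). The interaction count of 10 was 7 to 11 with 1 array left out. With the replicate number as a block, the counts were 1727 against untreated, 344 against formulation and 6 for the interaction. The numbers do not pair the mice: deviations of same-numbered arrays correlated at -0.20 to -0.03. The cause of these changes was not tested. Of the 116 called genes followed through the alternative fits, 83 differed by 1.5-fold or more. Apart from that minimum and the clock score, under which 113 lost their call, 94 kept it and 116 kept their direction under the alternatives run. With that score as a covariate the sign turned for Abcc2 (-0.034), Arntl (0.054), Clpx (0.11), Cry1 (0.18), Dbp (-0.24), Insig2 (0.17), Nr1d2 (-0.26), Per1 (-0.0091) and Slc30a10 (0.012). The number of arrays, 6 a group, limits the precision.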
